A study of Mus musculus with 8 samples.

Results

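The 10 genes described here encode transcription factors of the naive pluripotency network: Pou5f1, Sox2, Nanog, Esrrb, Klf2, Klf4, Klf5, Tfcp2l1, Zfp42 and Nr0b1. They were taken by symbol from Ensembl IDs, and all 10 were present in both gene tables, among 17938 genes in the knockdown arm, 18292 in the overexpression arm and 17409 in both. The RNA came from J1 cells, a mouse embryonic stem (ES) cell line of male origin kept on gelatin in medium with 15% serum and 10 ng/ml LIF, whose strain is given as 12910la. There were 8 libraries, made with an mRNA kit, 2 in each of 4 groups, with 17.39 to 22.38 M reads on genes per library. KD Zscan4 cells carried a pSuper puro plasmid encoding a short hairpin RNA that targets Zscan4, and KD control cells, labelled wild type, the random control. Both received 1000 ng of plasmid, and puromycin at 2 µg/ml from 24 h for 7 days. OE Zscan4 cells carried the coding sequence of Zscan4c in pCMV-tag2, in which a viral CMV promoter drives the insert, and OE control cells, labelled wild type, were their control. Both received 1000 ng of plasmid, and G418 at 500 µg/ml from 24 h for 10 days. Monoclonal cells were then picked in both arms. The labels do not say whether the 2 libraries of a group came from separate clones or cultures, so p-values reflect the spread between the samples sequenced, and that spread may be technical.

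Naive pluripotency is the state of the pre-implantation epiblast, which mouse ES cells keep in culture. Oct4 (from Pou5f1) and Sox2 bind DNA together at joined octamer and Sox sites, and with Nanog they activate each other and a wider circle of factors. In that circle, Klf4 and Tfcp2l1 respond to LIF through STAT3, Esrrb and Tfcp2l1 respond to Wnt signalling through relief of Tcf7l1 repression, and Klf2, Klf4 and Klf5 share many target sites. Zfp42 (Rex1) and Nr0b1 (Dax1) mark this state and fall early when ES cells leave it.

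The targeted gene was measured first. The summed normalised count of 9 Zscan4 family genes, near-identical copies active in 2-cell embryos and in a minority of ES cells, was 97.4 and 135.9 in KD Zscan4, against 3752 and 3336 in KD control. In the other arm it was 5878 and 5311 in OE Zscan4, against 360.4 and 389 in OE control. The groups did not overlap in either arm. The KD control libraries thus held more Zscan4 RNA than the OE control libraries, and the deposited tables were scaled separately. Normalised counts here are read counts divided by 1 factor per library, as deposited. Fold changes are on the log2(normalised count + 1) scale, each Zscan4 group minus its own control. Adjusted p-values come from limma, two-sided, with Benjamini-Hochberg adjustment over all genes of a table, and a gene was called at an adjusted p under 0.05.

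Sequence before the transcription start is shown for 5 of the genes, each with a searched motif, chosen to show several kinds of response. Nanog and Sox2 had higher counts in both Zscan4 groups than in their controls. Zfp42 and Nr0b1 had the largest overexpression changes, and Esrrb was the only gene whose groups overlapped, in the knockdown. Tfcp2l1, which fell in the overexpression, held no searched motif in its window and is not shown. Each line holds the 250 bases before a RefSeq start, 5′ to 3′ on the gene's own strand, from build GRCm38.p6, at chr6:122707239-122707488 (plus strand) for Nanog, chr3:34649745-34649994 (plus) for Sox2, chr8:43307010-43307259 (minus) for Zfp42, chrX:86191525-86191774 (plus) for Nr0b1 and chr12:86360867-86361116 (plus) for Esrrb. Capitals mark matches, on either strand, to the octamer motif ATGCAAA, part of the Oct4 site, the Sox motif ACAATG, the Klf motif CCACCC, the Esrrb motif AAGGTCA or TGCACAC, a motif reported for Zscan4c.
Nanog: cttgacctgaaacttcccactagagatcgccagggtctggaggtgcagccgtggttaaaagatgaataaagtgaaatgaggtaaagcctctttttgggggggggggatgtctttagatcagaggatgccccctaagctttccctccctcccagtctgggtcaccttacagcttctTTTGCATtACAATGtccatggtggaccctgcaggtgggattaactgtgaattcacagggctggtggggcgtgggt
Sox2: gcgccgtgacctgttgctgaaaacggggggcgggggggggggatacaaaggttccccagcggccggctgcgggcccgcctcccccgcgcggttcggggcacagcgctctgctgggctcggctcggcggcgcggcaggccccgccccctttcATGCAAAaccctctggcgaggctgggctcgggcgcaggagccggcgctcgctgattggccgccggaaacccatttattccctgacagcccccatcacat
Zfp42: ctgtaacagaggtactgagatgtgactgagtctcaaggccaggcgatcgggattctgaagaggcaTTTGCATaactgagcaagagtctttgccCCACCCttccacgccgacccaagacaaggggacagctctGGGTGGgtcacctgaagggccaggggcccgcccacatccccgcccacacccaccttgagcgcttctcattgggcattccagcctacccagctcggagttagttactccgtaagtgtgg
Nr0b1: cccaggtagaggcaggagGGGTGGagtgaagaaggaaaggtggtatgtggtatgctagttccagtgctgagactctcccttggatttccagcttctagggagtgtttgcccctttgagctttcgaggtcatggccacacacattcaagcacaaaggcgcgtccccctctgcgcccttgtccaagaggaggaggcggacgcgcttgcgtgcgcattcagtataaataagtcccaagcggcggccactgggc
Esrrb: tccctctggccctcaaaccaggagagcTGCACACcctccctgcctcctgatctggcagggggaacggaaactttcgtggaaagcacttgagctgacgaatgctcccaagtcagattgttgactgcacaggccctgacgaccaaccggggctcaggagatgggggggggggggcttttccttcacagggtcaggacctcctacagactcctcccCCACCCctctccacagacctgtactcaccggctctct

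In Nanog the octamer motif lay 75 bases before the first start with the Sox motif beside it at 67, the arrangement of a joined Oct4 and Sox2 site. From the second start of Nanog they lay at 151 and 143. Sox2 held an octamer motif 99 bases before its start, and Zfp42 one at 185 with Klf motifs at 157 and 118. Nr0b1 held a Klf motif 232 bases before its start. Esrrb held a Klf motif at 37 and was the only member with TGCACAC, at 223 bases before its first start. The RefSeq table matched 9 of the 10 genes, with 12 windows of 250 bases before to 50 after a start, 2 of which overlap at Nanog. Klf5 is named only. The octamer motif was found in 4 of the 12 windows (3 genes), against 4.63% of 32851 windows of the same length. The Sox motif was found in 4 windows (3 genes) and 12.6% of all, and the Klf motif in 8 windows (6 genes) and 31.5% of all. The Esrrb motif was in 0 windows and 4.72% of all, and TGCACAC in 1 window and 4.40% of all. No searched motif lies inside another, and matches were counted per motif. CpG content ranged widely among the members, with 40 CpG in the window of Klf4 and 4 in the first window of Nanog, beside a median of 7 over all windows. A match describes only the letters in these windows.

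Among the core factors, Nanog and Sox2 rose in both arms, and Pou5f1 rose in the overexpression and was not called in the knockdown. Pou5f1 (ENSMUSG00000024406, mm10 chromosome 17, 35506018 to 35510772, plus strand) encodes Oct4, without which no pluripotent epiblast forms. Its normalised counts were 29284 and 27014 in KD Zscan4, against 30719.7 and 30763 in KD control. Both knockdown libraries lay below both controls, but the change did not pass (log2 fold change -0.13, SE 0.05, adjusted p = 0.078). It passed without KD Zscan4 replicate 1 (-0.19, adjusted p = 5.2e-04) and with limma-voom (-0.13, adjusted p = 0.026). Counts were 29191 and 29049.8 in OE Zscan4, against 20747.5 and 19477 in OE control, and the groups did not overlap. That rise was 1.45-fold (log2 fold change 0.53, SE 0.07, adjusted p = 1.3e-05). Gm19553, annotated antisense to Pou5f1, had log2 fold changes of -0.17 in the knockdown and 0.56 in the overexpression. Strand use in counting is not stated, so reads from this gene and from Pou5f1 cannot be told apart.

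Nanog (ENSMUSG00000012396, chromosome 6, 122707489 to 122714633, plus strand) encodes a homeodomain factor whose level varies between single ES cells. Its counts were 13875 and 13334 in KD Zscan4, against 10641 and 10686 in KD control. They were 18501 and 18063 in OE Zscan4, against 12924.5 and 13224 in OE control. In each arm both Zscan4 libraries lay above both controls. The rise was 1.28-fold in the knockdown (log2 fold change 0.35, SE 0.05, adjusted p = 1.4e-04) and 1.40-fold in the overexpression (0.48, SE 0.07, adjusted p = 1.8e-05). Of the 75-base stretches in Nanog exons, 1.59% also occur in the pseudogene Nanog-ps1.

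Sox2 (ENSMUSG00000074637, chromosome 3, 34650405 to 34652461, plus strand) encodes the HMG-box partner of Oct4. Its counts were 11250.0 and 11363 in KD Zscan4, against 9381 and 9717 in KD control. They were 11683.5 and 11506 in OE Zscan4, against 9924 and 9986 in OE control. The libraries separated by group, and the changes were small. The rise was 1.18-fold in the knockdown (log2 fold change 0.24, SE 0.05, adjusted p = 0.0018) and 1.16-fold in the overexpression (0.22, SE 0.07, adjusted p = 0.011). The overexpression call was lost without OE Zscan4 replicate 1 (adjusted p = 0.169) or replicate 2 (adjusted p = 0.125). The Sox2 gene lies inside the long transcript Sox2ot on the same strand, which had mean counts of 19.8 in the knockdown table and 23.6 in the overexpression table, far below Sox2, and reads in shared exons cannot be told apart.

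**Figure D1:**
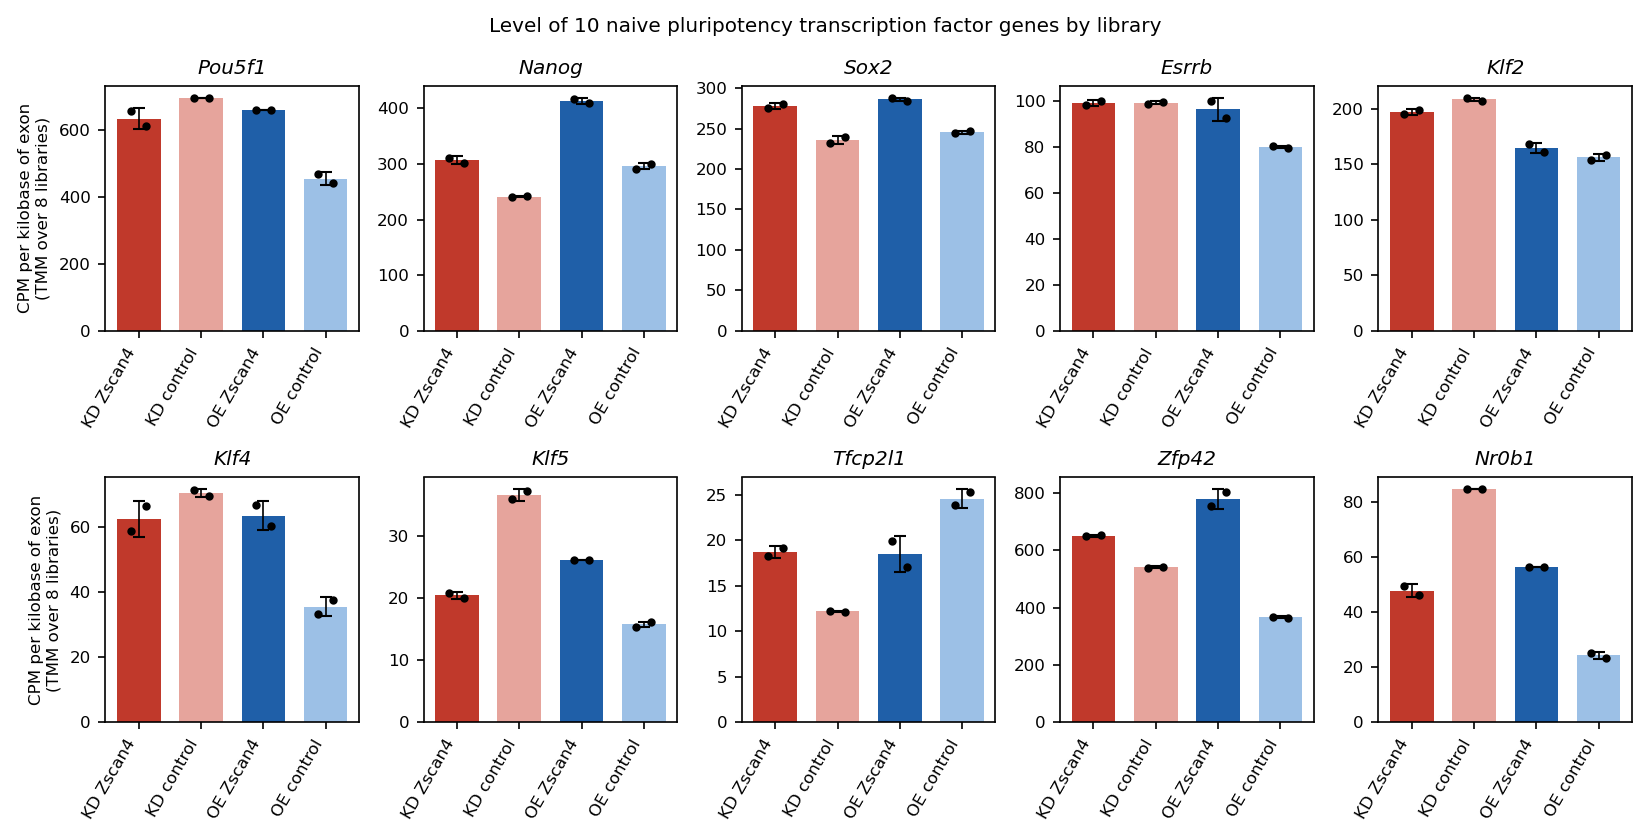
Level of each of the 10 genes, in CPM per kilobase of exon after joint TMM scaling of all 8 libraries, by group (bars, mean; error bars, SD; points, the 2 libraries). Pou5f1, Klf2, Klf4, Klf5 and Nr0b1 stand lowest in OE control and highest in KD control. The mean of Esrrb does too, but its KD control, KD Zscan4 and OE Zscan4 libraries overlap. Tfcp2l1 stands highest in OE control and lowest in KD control.

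Of the Klf factors, Klf4 and Klf5 rose in the overexpression, Klf5 fell in the knockdown, and Klf2 was not called in either arm. These zinc finger proteins bind CACCC-type sites and can replace each other in part. Klf5 (ENSMUSG00000005148, chromosome 14, 99298691 to 99315036, plus strand), which is also needed in the early embryo for trophectoderm and epiblast, had 2152 and 2056 in KD Zscan4, against 3674.5 and 3822 in KD control. In the other arm it had 2686 and 2675 in OE Zscan4, against 1584 and 1648 in OE control. All 4 Zscan4 libraries stood apart from their controls, below them in the knockdown and above them in the overexpression. Klf5 fell to 0.561 times the control level in the knockdown (log2 fold change -0.83, SE 0.05, adjusted p = 4.3e-07), and rose 1.66-fold in the overexpression (0.73, SE 0.07, adjusted p = 1.8e-07).

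Klf4 (ENSMUSG00000003032, chromosome 4, 55527143 to 55532466, minus strand), a direct target of STAT3 and one of the reprogramming factors, had 3545 and 3985.5 in KD Zscan4, against 4265 and 4170.0 in KD control. In the overexpression arm it had 4006 and 3609.5 in OE Zscan4, against 2007 and 2253 in OE control. The overexpression change was the clear one, a 1.79-fold rise (log2 fold change 0.84, SE 0.08, adjusted p = 1.3e-07). In the knockdown the value was -0.17 (SE 0.06), which passed at an adjusted p of 0.0496 and failed under 8 of the alternatives tried, with adjusted p from 0.0516 to 0.264. Without KD Zscan4 replicate 1 that value was -0.08 (adjusted p = 0.264), and it was -0.15 (0.199) and -0.18 (0.127) without KD control replicate 1 or 2.

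Klf2 (ENSMUSG00000055148, chromosome 8, 72319033 to 72321656, plus strand), whose protein is stabilised when MEK is inhibited, had 7154 and 7253 in KD Zscan4, against 7617 and 7559 in KD control. It had 6127 and 5861 in OE Zscan4, against 5618 and 5767 in OE control. The groups did not overlap in either arm. Neither change was called, at -0.08 (95% interval -0.18 to 0.03, adjusted p = 0.24) in the knockdown and 0.07 (-0.06 to 0.21, adjusted p = 0.38) in the overexpression.

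Esrrb and Tfcp2l1 stand at the Wnt and LIF branches of the network. Esrrb (ENSMUSG00000021255, chromosome 12, 86361117 to 86521628, plus strand), an orphan nuclear receptor that can stand in for Nanog, had 11767 and 11907 in KD Zscan4, against 11712 and 11866 in KD control. These libraries interleaved, and the log2 fold change was 0.0058 (95% interval -0.10 to 0.11, adjusted p = 0.94). In the other arm it had 11914 and 11004 in OE Zscan4, against 9569.9 and 9458 in OE control, without overlap. The rise was 1.20-fold (log2 fold change 0.27, SE 0.07, adjusted p = 0.0039), and its call was lost without OE Zscan4 replicate 1 (0.21, adjusted p = 0.164).

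Tfcp2l1 (ENSMUSG00000026380, chromosome 1, 118627945 to 118685168, plus strand), a CP2-family factor and target of STAT3, had changes opposite in sign to those of Klf4, Klf5 and Nr0b1 in each arm. It had 3420 and 3565 in KD Zscan4, against 2268.5 and 2262 in KD control. It had 3713 and 3177 in OE Zscan4, against 4444 and 4705 in OE control. The groups did not overlap in either arm. Gm23497, a small RNA gene that overlaps Tfcp2l1 on the same strand, had mean counts of 23.1 in the knockdown arm and 23.7 in the overexpression arm. Gm22094 and Gm28882 overlap it on the other strand and were not measured. Tfcp2l1 rose 1.54-fold in the knockdown (log2 fold change 0.62, SE 0.05, adjusted p = 3.1e-06). It fell to 0.751 times the control level in the overexpression (-0.41, SE 0.08, adjusted p = 2.6e-04). Chromosome 1, however, was shifted as a whole in the knockdown. Its 703 protein-coding genes with a mean count of at least 20 had a median log2 fold change of 0.56, and 91.0% of them were above 0. Measured from that median, Tfcp2l1 stood at 0.07 and was no longer called (adjusted p = 0.37). In the overexpression the chromosome 1 median was -0.07, and Tfcp2l1 stood at -0.34 from it and was still called. The medians of the chromosomes that hold the other 9 genes were between -0.05 and 0.07 in both arms. Chromosomes that hold none of the set were shifted too. In the overexpression the chromosome 11 median was -0.34, with 18.9% of its genes above 0. The 5 genes of chromosome Y had a median of -2.20 in the knockdown and -6.02 in the overexpression, with none above 0. Monoclonal cells were picked, and the part of differences between clones in the changes of the naive factors was not tested.

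Zfp42 and Nr0b1 had the largest rises in the overexpression. Zfp42 (ENSMUSG00000051176, chromosome 8, 43295063 to 43306980, minus strand), a zinc finger gene used as a reporter of the naive state, had 24229 and 24216 in KD Zscan4, against 19897 and 20156 in KD control. It had 28065 and 29719 in OE Zscan4, against 13701 and 13541 in OE control. Both Zscan4 groups lay above their controls, and the overexpression gap was the wider. Zfp42 rose 1.21-fold in the knockdown (log2 fold change 0.27, SE 0.05, adjusted p = 7.2e-04) and 2.12-fold in the overexpression (1.08, SE 0.07, adjusted p = 2.7e-09). Of its 75-base exon stretches, 4.36% also occur in the copy Zfp42-ps1.

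Nr0b1 (ENSMUSG00000025056, chromosome X, 86191764 to 86195947, plus strand), which encodes an orphan nuclear receptor that binds Oct4 and represses its targets, had 1779 and 1646 in KD Zscan4, against 3008 and 3019 in KD control. It had 2012 and 2004 in OE Zscan4, against 901 and 836 in OE control. The libraries of a group lay close together and the groups were far apart, low in KD Zscan4 and high in OE Zscan4 relative to control. Nr0b1 fell to 0.568 times the control level in the knockdown (log2 fold change -0.82, SE 0.06, adjusted p = 8.3e-07), and rose 2.31-fold in the overexpression (1.21, SE 0.07, adjusted p = 1.1e-09).

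**Figure D2:**
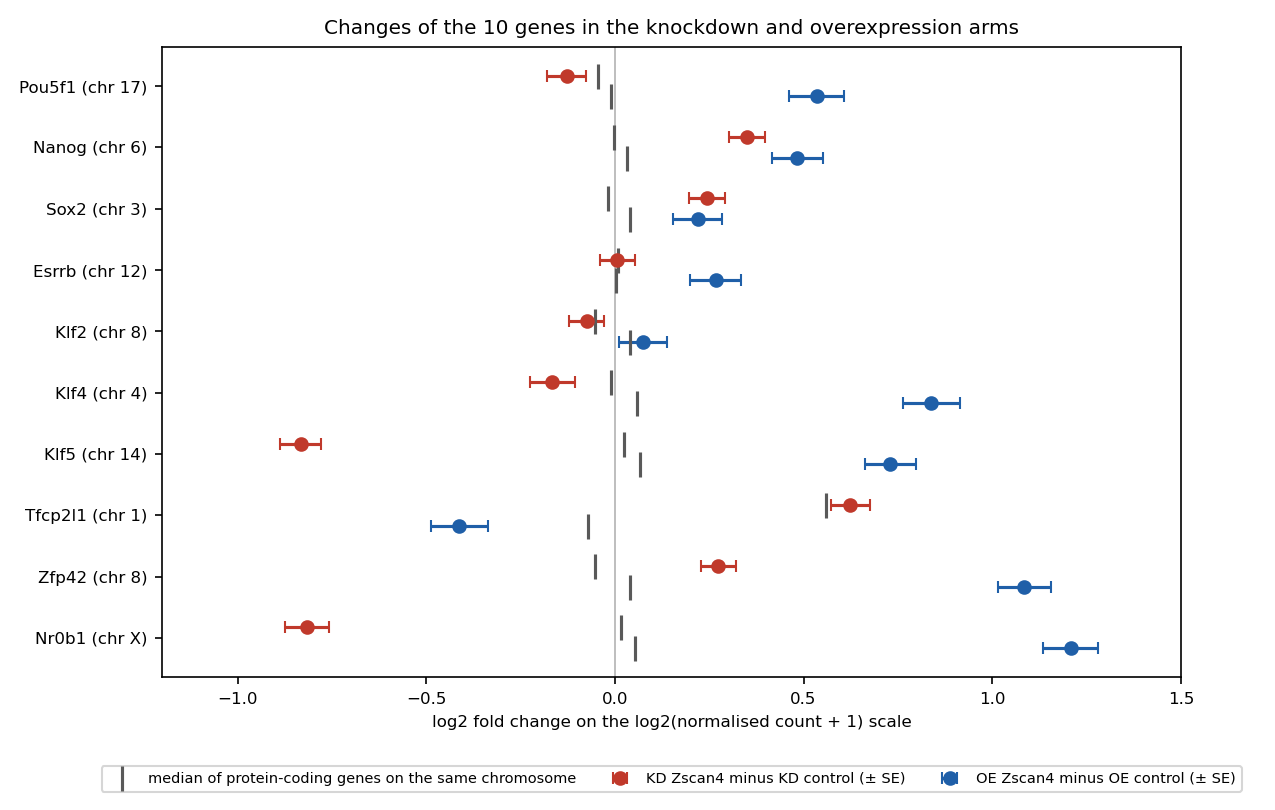
Log2 fold change (x axis) of each gene in KD Zscan4 minus KD control (red) and OE Zscan4 minus OE control (blue), with SE, and the median of protein-coding genes on the gene's own chromosome (grey ticks). Klf5 and Nr0b1 lie far below 0 in red (-0.83 and -0.82) and far above 0 in blue (0.73 and 1.21), and the red Tfcp2l1 point lies beside its chromosome's tick (0.62 and 0.56).

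Over the whole set, 7 of the 10 genes were called in the knockdown, beside 35.7% of all 17938 genes. Of these, 4 rose (Nanog, Sox2, Tfcp2l1 and Zfp42), beside 17.2% of all genes, and 3 fell (Klf4, Klf5 and Nr0b1), beside 18.5%. The groups did not overlap for 9, beside 67.8% of all genes. The median log2 fold change of the 10 was -0.03, against 0.0078 over all genes. In the overexpression 9 of 10 were called, beside 44.3% of all 18292 genes. Of these, 8 rose, beside 22.3%, and 1 fell (Tfcp2l1), beside 22.1%, with Klf2 not called. No overlap was seen for any of the 10, beside 71.2% of all genes. The median was 0.51, against -0.0022 over all genes. All 10 genes have high counts, so the same shares were also taken over genes with a mean count of at least 1000. This background was chosen after the values were seen, and goes by counts and not by level per kilobase. Per kilobase, Tfcp2l1 stood at percentile 75.9 of genes in KD control and Klf5 at percentile 81.0 in OE control. In that background 51.8% of 3976 genes were called in the knockdown (21.3% rose and 30.5% fell) and 61.4% of 3929 in the overexpression (45.6% rose and 15.9% fell). The groups did not overlap for 78.2% of it in the knockdown and 82.8% in the overexpression. Its median log2 fold change was -0.03 for the knockdown, close to that of the 10 genes, and 0.15 for the overexpression, below that of the 10.

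**Figure D3:**
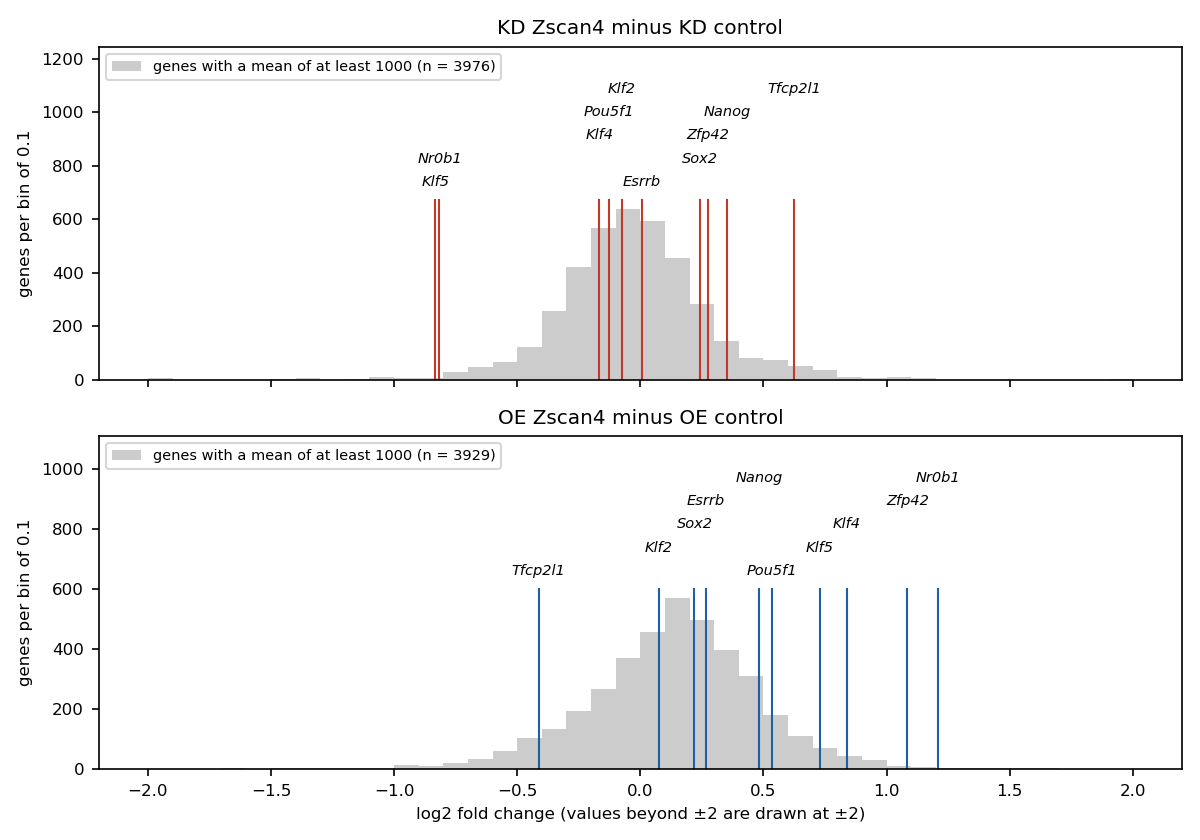
Number of genes with a mean normalised count of at least 1000 (y axis) by log2 fold change (x axis), for the knockdown above and the overexpression below, with the 10 genes as vertical lines. In the knockdown the 10 lie on both sides of 0, with Klf5 and Nr0b1 the lowest of the 10. In the overexpression 9 of them lie above 0, as Tfcp2l1 is at -0.41.

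The difference between both effects, knockdown minus overexpression, was tested over the 17409 genes of both tables. It was called for 7 of the 10 genes, beside 44.7% of all genes. It was positive for 1 of these, Tfcp2l1, beside 21.8% of all genes, and negative for 6, which were Pou5f1, Esrrb, Klf4, Klf5, Zfp42 and Nr0b1, beside 22.9%. It was largest for Nr0b1 (-2.02, SE 0.09, adjusted p = 6.8e-11) and Klf5 (-1.56, SE 0.08, adjusted p = 4.0e-10). Klf4, Klf5, Nr0b1 and Tfcp2l1 were called in both arms with opposite signs, although the knockdown calls of Klf4 and Tfcp2l1 were lost under alternatives given above. Nanog, Sox2 and Zfp42 were called in both arms with the same sign, although the overexpression call of Sox2 was lost without either OE Zscan4 library. For Nanog the difference was -0.13 (95% interval -0.29 to 0.02, adjusted p = 0.158), for Sox2 0.02 (-0.13 to 0.18, adjusted p = 0.82) and for Klf2 -0.15 (-0.30 to 0.0058, adjusted p = 0.11). For Tfcp2l1, 1.04 as measured, the difference was 0.41 once each effect was taken from its chromosome 1 median. That value was not tested.

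Levels were then set side by side across the 4 groups, in CPM per kilobase of exon after joint TMM scaling and with no test, since the tables came separately. Pou5f1 and Zfp42 had the highest levels of the set in every group, followed by Nanog, Sox2, Klf2 and Esrrb in that order. Zfp42 was at 651 ± 3.19 in KD Zscan4, 541 ± 3.92 in KD control, 780 ± 34.1 in OE Zscan4 and 367 ± 2.19 in OE control (mean ± SD, n = 2 each). Pou5f1 was at 633 ± 32.7 in KD Zscan4, 695 ± 0.63 in KD control, 657 ± 0.08 in OE Zscan4 and 454 ± 19.2 in OE control. The mean of Zfp42 was thus above that of Pou5f1 in both Zscan4 groups and below it in both control groups, but in KD Zscan4 their libraries overlapped, with Zfp42 at 649 and 653 and Pou5f1 at 656 and 609.9. Klf5 and Tfcp2l1 were the lowest in KD Zscan4, KD control and OE Zscan4, and Klf5 was in OE control, where Nr0b1 (25.2 and 23.5) and Tfcp2l1 (23.8 and 25.3) came next and overlapped. Over the 8 libraries the highest CPM was 3.60 times the lowest for Nr0b1, and 1.24 times for Sox2 and 1.26 times for Esrrb, the narrowest ranges of the set.

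The control groups were set side by side in the same way. The KD control level was 3.47 times the OE control level for Nr0b1, 2.32 times for Klf5, 1.98 times for Klf4, 1.53 times for Pou5f1 and 1.47 times for Zfp42. For Klf2 it was 1.34 times and for Esrrb 1.24 times. It was 0.961 times for Sox2, 0.817 times for Nanog and 0.496 times for Tfcp2l1. For Pou5f1, Klf5 and Nr0b1 the order was KD control, OE Zscan4, KD Zscan4, OE control, with neighbours that did not overlap. For Nr0b1 the levels were 47.9 ± 2.37 in KD Zscan4, 84.7 ± 0.05 in KD control, 56.4 ± 0.03 in OE Zscan4 and 24.4 ± 1.23 in OE control. Klf4 had the same order, but OE Zscan4 (63.4 ± 4.46) and KD Zscan4 (62.5 ± 5.50) overlapped. Tfcp2l1 was at 18.7 ± 0.65 in KD Zscan4, 12.2 ± 0.05 in KD control, 18.5 ± 1.97 in OE Zscan4 and 24.6 ± 1.05 in OE control, so that OE control was highest, KD control lowest, and both Zscan4 groups overlapped. Nanog and Sox2 ran from OE Zscan4 through KD Zscan4 and OE control to KD control, and Zfp42 from OE Zscan4 through KD Zscan4 and KD control to OE control, each without overlap of neighbours. Klf2 ran from KD control through KD Zscan4 and OE Zscan4 to OE control without overlap. For Esrrb, KD control, KD Zscan4 and OE Zscan4 overlapped and OE control was lower. The vectors and drugs of the arms differ too, and their part in these differences cannot be told apart from that of the arm.

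For the 6 genes called with a change of at least 0.5 in an arm, the genes of most similar profile were sought among 10663 genes, by Euclidean distance over 8 libraries of the log2 value minus the mean of the arm's control. The nearest to Nr0b1 were Lrp2 (distance 0.158), Plk3 (0.193) and Lmo4 (0.266), and 21 genes lay within 0.5. Those nearest to Zfp42 were Fblim1 (0.089), Zfp617 (0.122) and Sfpq (0.216), with 62 genes within 0.5, and those nearest to Klf5 were Foxp1 (0.151), Slc25a40 (0.157) and Cited2 (0.158), with 97. Klf4 was closest to Rnf41 (0.136), Arid5b (0.164) and mt-Nd4 (0.185), with 453. Tfcp2l1 was closest to Fbxo10 (0.139) and to Acbd6 (0.153) and Ppox (0.162), both of which are on chromosome 1, with 367. Pou5f1 had the commonest profile, with 1898 genes within 0.5, of which Ppp1r8 (0.064), Rps4l (0.066) and Tubb4b (0.070) were closest.

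Lists of related genes set these values beside the rest of the network, with no test of a list as a whole. Over all genes, 17.2% rose and 18.5% fell in the knockdown (median 0.0078), and 22.3% rose and 22.1% fell in the overexpression (median -0.0022). Of 19 other naive pluripotency genes, 3 rose, 12 fell and 4 were not called in the knockdown (median log2 fold change -0.20), and 12 rose, 2 fell and 5 were not called in the overexpression (median 0.71). Gbx2, a homeobox gene that STAT3 activates, had 1111 and 1167 in KD Zscan4, against 3751 and 3637 in KD control (-1.70). It had 1263 and 1188 in OE Zscan4, against 259 and 307 in OE control (2.11). The knockdown rises were Nr5a2 (0.75), a nuclear receptor gene that can replace Oct4 in reprogramming, Tbx3 (0.64), a T-box factor, and Prdm14 (0.61), a repressor of Fgf signalling. Gbx2, Nr5a2 and Prdm14 lie on chromosome 1. Measured from that chromosome's knockdown median, Gbx2 stood at -2.26 and Nr5a2 at 0.19 (adjusted p = 0.037), while Prdm14 stood at 0.05 and lost its call. In the overexpression Foxd3 (2.93), a forkhead gene of the epiblast, rose. Dppa3, a maternal factor that protects DNA methylation in the zygote, fell there, with 87.2 and 120.3 in OE Zscan4, against 382 and 299.7 in OE control (-1.72).

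Genes linked to the exit from naive pluripotency (10 measured) include some that drive it and some that oppose it. They had 2 rises, 6 falls and 2 not called in the knockdown (median -0.26). In the overexpression they had 5 rises, 1 fall and 4 not called (median 0.32). The largest knockdown values were Tfe3 (-0.68), a transcription factor shut out of the nucleus as cells exit, Jarid2 (-0.65), a Polycomb subunit, Zfp281 (0.62), a zinc finger factor, and Fnip1 (0.36), a partner of folliculin. Zfp281 is on chromosome 1 and stood at 0.06 from its median, without a call. The call of Fnip1 was lost with DESeq2 (adjusted p = 0.120) and without KD control replicate 1 (0.056), KD control replicate 2 (0.076) or KD Zscan4 replicate 2 (0.128). In the overexpression Fnip1 fell (-0.86), on chromosome 11, whose median was -0.34, and Zfp281 (0.85), Jarid2 (0.74) and Etv5 (0.70), an Ets factor, rose. The knockdown count was 5 without KD control replicate 2, and 5 of 7 without the genes of chromosomes 1, 11 and Y.

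Formative and primed genes, linked to the states after the naive one, had 1 rise, 13 falls and 5 not called of 19 in the knockdown (median -0.94). They had 12 rises, 0 falls and 5 not called of 17 in the overexpression (median 0.90), where Fgf5 and Fgf8 were not measured. The knockdown median is the value of Fgf8, which was not called and had counts of 2.0 to 11.6. Fgf5 (2.0 to 12.4) and T (4.1 to 23.3) also had low counts there and were not called. Sox3 (-2.19), a Sox factor of the epiblast and neural plate, Lef1 (-1.41), a Wnt effector, Lefty1 (-1.39), a Nodal inhibitor, and Tcf15 (-1.38), a priming factor, fell the most in the knockdown. Lefty1 lies on chromosome 1 and stood at -1.95 from its median. Tcf15 had 1926 and 1910 in KD Zscan4, against 5128 and 4863 in KD control, without overlap. The largest overexpression rises were Zic2 (2.51) and Zic5 (1.29), zinc finger genes, Otx2 (1.44), which directs the step to the formative state, and Dnmt3a (1.14), a DNA methyltransferase. Otx2 was the 1 gene of the list that rose in the knockdown, at 829 and 779 in KD Zscan4, against 521 and 537 in KD control (0.60, adjusted p = 6.2e-05).

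Of 10 genes of LIF and STAT3 signalling, 0 rose, 5 fell and 5 were not called in the knockdown (median -0.13), and 5 rose, 4 fell and 1 was not called in the overexpression (median 0.09). The immediate early gene Junb fell in the knockdown (-0.68) and rose in the overexpression (0.73). Lifr (-0.24), the LIF receptor, the kinase gene Pim1 (-0.21) and Stat3 (-0.21) fell slightly in the knockdown, and that count was 1 without KD control replicate 2 and 3 without KD control replicate 1, with DESeq2 or from the chromosome medians. The Lifr call was lost in each of these settings and without KD Zscan4 replicate 1 (adjusted p = 0.086), and those of Pim1 (0.081) and Stat3 (0.106) without KD control replicate 2. In the overexpression Jak2 (-0.72), a kinase gene of the list beside Jak1, and Socs3 (-0.41), the feedback inhibitor, fell. Without OE Zscan4 replicate 1, Jak2 was at -0.48 and lost its call. Stat3, which is also counted among the other naive genes, was at -0.29 in the overexpression, and Socs3 and Stat3 lie on chromosome 11. Measured from the median of that chromosome, Socs3 lost its call and Stat3 stood at 0.04, and Stat3 also lost its call without OE Zscan4 replicate 2 (adjusted p = 0.061). The count in the overexpression was 3 called without OE Zscan4 replicate 1 and 4 without replicate 2.

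**Figure D4:**
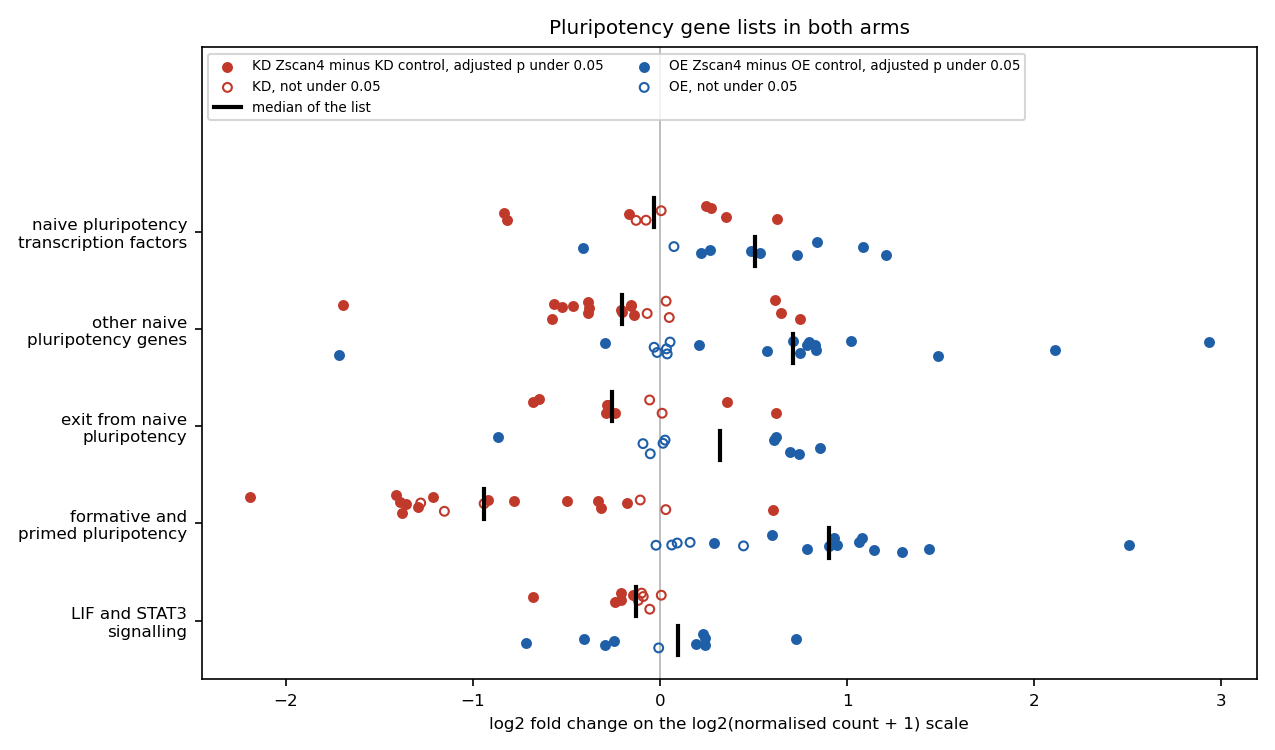
Log2 fold change (x axis) of each gene of 5 lists, in the knockdown (red) and the overexpression (blue), with filled points for an adjusted p under 0.05 and black bars for the median of the list. The formative and primed genes have medians of -0.94 over 19 genes and 0.90 over 17, further from 0 than those of the 10 naive factors (-0.03 and 0.51). The median of -0.94 is the value of Fgf8, a gene of low count that was not called.

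Markers of other cells that a culture could hold moved with the groups as well. In these bulk libraries, fewer cells of a type and less RNA per cell cannot be told apart. The summed count of the 2-cell-like markers was 133 and 182 in KD Zscan4, against 3288 and 3003 in KD control, and all 12 measured markers fell (median -3.51). It was 4974 and 4393 in OE Zscan4, against 313 and 357 in OE control, where 11 of 12 rose (median 3.68). That list holds 6 Zscan4 genes, the family that the hairpin targets and that includes the overexpressed gene. The changes of those 6 are therefore no separate evidence on 2-cell-like cells. Gm4340, the marker of highest count outside that family, had 40.6 and 54.4 in KD Zscan4, against 422 and 316 in KD control. It had 502 and 427 in OE Zscan4, against 32.4 and 29.9 in OE control. Duxf3 was the marker not called in the overexpression. Zfp352 and Duxf3 were at 0 in KD Zscan4 replicate 1. The summed count of 14 primitive endoderm markers was 6860.0 and 6364 in KD Zscan4, against 20280.1 and 20039 in KD control, and 14 of 14 fell (median -2.87). The defining factor Gata6 had 25.4 and 16.5 in KD Zscan4, against 467 and 383 in KD control, and Foxa2 was at 0 in KD Zscan4 replicate 1. In the overexpression arm the sum over 13 markers was 6075 and 6087 in OE Zscan4, against 8653 and 8291 in OE control, and 10 fell (median -0.65).

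The other lists moved less evenly. Trophectoderm markers summed to 2830.3 and 2687 in KD Zscan4, against 2382 and 2424 in KD control (1 of 9 rose and 3 fell), and to 2474 and 2525 in OE Zscan4, against 3208 and 2942 in OE control (0 of 8 rose and 4 fell). Mesoderm markers summed to 165 and 176 in KD Zscan4, against 409 and 335 in KD control (3 of 8 fell), and to 178 and 164 in OE Zscan4, against 232 and 180.3 in OE control (1 of 8 fell). Neural ectoderm markers summed to 6074 and 5839 in KD Zscan4, against 4856 and 4827 in KD control (2 of 7 rose and 5 fell), and to 5673 and 5540.1 in OE Zscan4, against 3223 and 3074 in OE control (3 of 6 rose and 2 fell). Fibroblast markers summed to 3832 and 3558 in KD Zscan4, against 5531 and 5757 in KD control (1 of 7 rose and 2 fell), and to 2672 and 2662 in OE Zscan4, against 2270.4 and 2145 in OE control (1 of 6 rose and 2 fell). Single genes carried some of these sums. Without Tubb3, the neural sum was 1153 and 1136 in KD Zscan4, against 1929 and 1887 in KD control, and 1155 and 1134 in OE Zscan4, against 1075 and 1048 in OE control. Without Tfap2c, the trophectoderm sum was 1135 and 1084 in KD Zscan4, against 1422 and 1431 in KD control. Without Vim, the fibroblast sum was 313 and 309 in KD Zscan4, against 331 and 346 in KD control, and 288 and 290.3 in OE Zscan4, against 571 and 530.5 in OE control. Pou5f1, the defining marker of ES cells, lay above at least 99.3% of genes in level in each of the 4 groups. The part of these other cells in the values of the 10 genes was not tested.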

How the data were processed

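Samples were grouped by their titles, and each arm had its own gene table. Per the submitters' processing notes, the authors used cutadapt, HISAT2, featureCounts, DESeq2 and the build mm10; versions are not given in the sources used here, nor is strand use. The deposited values are a signal, read counts divided by 1 factor per library. Undoing that division gave whole reads, to within 0.01, for 100% of values. Chi-square per degree of freedom between replicates was 2.94 to 4.96, which cannot tell separate cultures from repeated preparations. Each library counted once. The main test was limma (3.58.1) trend on log2(value + 1), 2 against 2 libraries, two-sided, Benjamini-Hochberg adjusted, at a false discovery rate of 0.05. Recovered reads were tested with limma-voom, edgeR (4.0.16) and DESeq2 (1.42.0) as alternatives. With edgeR's quasi-likelihood test, 6483 genes were called in the knockdown and 8185 in the overexpression. Other alternatives were pseudocounts of 4 and 0.5, a mean of at least 10, TMM scaling, leaving out each library or chromosomes 1, 11 and Y, subtracting the chromosome median, 1 fit of all 8 libraries, and a replicate block. Joint CPM used TMM over 8 libraries and GENCODE M21 exon lengths. Gene names and coordinates were from GENCODE M21, which held 17923 and 18272 of the IDs, and promoters from RefSeq. The procedure was tested on simulated data. The 10 genes and the gene lists were chosen with earlier results of these data known. Genes named were the 10, up to 4 called genes per pathway list and arm with the largest change, and the 3 nearest profiles among genes with a mean of at least 100. Genes that overlap one of the 10 were named too. Gata6, Gm4340, Tubb3, Tfap2c, Vim, Fgf5, Fgf8 and T were named after their values were seen. Of the genes this rule names, 1 is counted in its list and not reported here by name. Repeat tables were not used here. Counts carry no molecular identifiers in the labels.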

Additional observations from a re-analysis of the deposited data

Results flagged for a closer look

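For 7 of the 10 genes the knockdown effect and the overexpression effect differed in the test of that difference (limma, adjusted over 17409 genes, of which 44.7% were called). The difference is the knockdown log2 fold change minus the overexpression one. It was -2.02 for Nr0b1, -1.56 for Klf5, -1.004 for Klf4, -0.81 for Zfp42, -0.66 for Pou5f1, -0.26 for Esrrb and 1.04 for Tfcp2l1. For Tfcp2l1 it was 0.41 once each effect was taken from its chromosome 1 median, a value that was not tested. For Zfp42 both effects were rises, of 0.27 in the knockdown and 1.08 in the overexpression. For Esrrb the call was lost without KD control replicate 2 (adjusted p = 0.053) or without OE Zscan4 replicate 1 (adjusted p = 0.071). Groups of 2 libraries are too small for a test of single outlying libraries.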

How the results depend on the processing

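Of 94 counts of genes and of the 10 factors called under the alternatives, 93 stayed within 1.5 times the value as reported. The exception was DESeq2, with 4125 genes called in the knockdown, against 6403 with limma; the cause was not tested. Leaving out 1 library at a time called 4416 to 6087 genes and 6 to 7 of the 10 factors in the knockdown; the overexpression had 5964 to 7975 and 7 to 9, and the difference between effects 6619 to 7397 and 6 to 7. Replicate numbers did not pair the samples (correlation of deviations -0.059 and -0.039). With the replicate number as a block, the knockdown had 6924 genes and 7 factors called, the overexpression 8188 and 9, and the difference 7388 and 7. For the 10 factors, 447 of 467 values kept direction and call, 14 lost the call, 2 gained it and 4 changed sign. Leaving out 1 library at a time, the knockdown value of Esrrb ran from -0.0036 (KD control replicate 1 left out) to 0.0152, and was -0.0028 with KD Zscan4 replicate 2 left out; from its chromosome median it was -0.0023. The difference for Sox2 ran from -0.0013 (KD control replicate 1 left out) to 0.0494. None of these was called. Among other named genes, the knockdown value of mt-Nd4 ran from -0.23 to 0.0448, its highest value being that without KD Zscan4 replicate 1. From the chromosome median, Acbd6 stood at -0.0057 in the knockdown and Stat3 at 0.0446 in the overexpression. With 2 libraries a group, their number limits the precision, and the lowest of the 10 genes, Nr0b1, still had 836 normalised counts in an OE control library.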
